A study of Homo sapiens with 8 samples.

Results

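Promoter shoulders are taken here as H3K9ac peaks whose centre lay over 1 kb and at most 5 kb from the nearest transcription start site (TSS) of a protein-coding gene. They were chosen by the gene type and the distance to the TSS that the deposited peak lists give, and by nothing else. This gave 1459 shoulder peaks of 27467 H3K9ac peaks in all, 309 astromal and 1150 stromal. The cells were MIA PaCa-2, an established pancreatic cancer line, grown in 3 dimensions in a hyaluronan hydrogel. Astromal gels held Glycosil, a modified hyaluronan, and the crosslinker Extralink but no Gelin-S, the collagen-derived component, and received medium with 2% serum. Stromal gels also held Gelin-S, and their medium, with 2% serum, had been conditioned by an immortalized line of myofibroblasts from a resected human pancreatic tumour. Both conditions used the same cells, and the comparison asks how stromal cues act on histone acetylation in them. Each mark and condition was 1 library, so no difference below has a replicate check and none has a p-value.

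Acetylation of lysine 9 on histone H3 marks nucleosomes at active promoters, and it is densest just beside the TSS, on the nucleosomes that flank the depleted site where transcription begins. Acetylation of lysine 27 on the same histone marks active promoters and active enhancers. Acetylated nucleosomes some distance from the start can belong to a broad promoter domain, to a nearby enhancer or to another start site of the gene.

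The shoulders were set beside coding peaks within 1 kb (core peaks, 5675 astromal and 14444 stromal) and beyond 5 kb (distal peaks, 473 and 2644). The H3K9ac libraries held an estimated 3923202 (astromal) and 7569791 (stromal) tags, and a median peak of all kinds held 9 and 20 tags. H3K27ac depth was 13453902 and 17190695 tags, with 14489 and 15093 peaks. Peaks held 1.76% of astromal and 5.81% of stromal H3K9ac tags, and 2.17% and 1.97% of H3K27ac tags. Each level is a deposited tag count of a peak that the authors scaled to a library of 10000000 tags. Brackets hold exact Clopper-Pearson intervals at 95% (for tag ratios, exact conditional binomial intervals), which cover counting error only and take peaks as independent. Blood, endothelial, acinar and islet marker genes had no peak in either list. Fibroblast markers had none within 5 kb in the astromal list, and 4 of 12 had peaks in the stromal list (ACTA2, COL1A1, COL1A2 and PDGFRA), with a summed level of 129.5 normalised tags. Mesenchymal markers had peaks within 5 kb at 1 of 13 genes in the astromal and 5 of 13 in the stromal list, with summed levels of 20.4 and 291.8. Epithelial markers had peaks within 5 kb at 4 of 15 genes in the astromal and 7 of 15 in the stromal list. Their summed levels were 132.5 and 268. ESRP2, KRT18, CLDN4 and MUC1 had peaks in both lists. For scale, 5255 coding genes had a peak at any distance in the astromal and 10695 in the stromal list. The part of other cells in any result was not tested.

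Immediate early genes, a list chosen with earlier results of these data known, had shoulders more often than coding genes in general. The promoters of 4 of them are shown: FOS and FOSB, which hold a TATA box, and JUND and KLF6, which hold CCAAT boxes instead. FOS, FOSB and JUND encode AP-1 subunits and KLF6 a zinc finger factor. Each sequence is the 250 bases before the gene's start, from RefSeq on build GRCh38.p14, with matches to TATAAA or CCAAT on either strand in capitals. They lie at chr14:75278578-75278827 (plus strand), chr19:45467746-45467995 (plus), chr19:18281623-18281872 (minus) and chr10:3785210-3785459 (minus). The peaks are on hg19 and were measured from the authors' TSS annotation, whose start need not be the one shown.
FOS: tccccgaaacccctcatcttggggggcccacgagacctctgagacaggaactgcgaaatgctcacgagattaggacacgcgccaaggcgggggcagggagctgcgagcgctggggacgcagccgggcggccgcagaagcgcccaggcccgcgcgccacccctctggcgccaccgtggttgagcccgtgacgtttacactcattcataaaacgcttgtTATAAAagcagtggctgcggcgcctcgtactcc
FOSB: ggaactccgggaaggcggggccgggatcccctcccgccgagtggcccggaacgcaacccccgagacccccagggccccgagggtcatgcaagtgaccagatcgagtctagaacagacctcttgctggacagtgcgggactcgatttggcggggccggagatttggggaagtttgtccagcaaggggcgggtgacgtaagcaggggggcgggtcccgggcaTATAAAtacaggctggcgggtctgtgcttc
JUND: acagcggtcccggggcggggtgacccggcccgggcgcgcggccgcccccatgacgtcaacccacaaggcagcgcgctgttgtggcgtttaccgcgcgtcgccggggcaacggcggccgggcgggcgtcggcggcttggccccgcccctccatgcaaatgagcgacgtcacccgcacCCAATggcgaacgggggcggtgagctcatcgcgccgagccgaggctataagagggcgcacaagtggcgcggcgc
KLF6: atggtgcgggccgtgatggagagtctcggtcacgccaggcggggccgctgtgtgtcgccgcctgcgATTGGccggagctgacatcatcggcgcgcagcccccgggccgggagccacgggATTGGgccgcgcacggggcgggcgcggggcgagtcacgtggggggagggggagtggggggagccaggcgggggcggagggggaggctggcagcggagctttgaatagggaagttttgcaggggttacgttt

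Shoulder peaks were a small share of the coding H3K9ac peaks, 4.79% (4.28 to 5.33) of 6457 astromal peaks and 6.31% (5.96 to 6.67) of 18238 stromal peaks. They belonged to 293 astromal genes, 5.58% of the 5255 coding genes with any peak, and to 1009 stromal genes, 9.43% of 10695. Most shoulder peaks lay in the inner part of the window. In the stromal list 592 lay between 1 and 1.5 kb and 179 between 1.5 and 2 kb, and the next 3 bins, each 1 kb wide, held 152, 105 and 122. The stromal number was thus not lowest in the outermost bin. The astromal list had 183 and 45 in the inner bins and 34, 25 and 22 in those from 2 kb. More than a few peaks per gene were rare: 278 astromal and 876 stromal genes had 1 shoulder peak, and none had over 3.

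Shoulders lay more often downstream of the TSS, mostly inside the gene, than upstream. The astromal list had 136 upstream and 173 downstream peaks, a downstream share of 56.0% (50.3 to 61.6). The stromal list had 482 and 668, a share of 58.1% (55.2 to 61.0). These shares lay between those of core peaks (68.2% astromal, 64.4% stromal) and distal peaks (41.2% and 46.9%).

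The side that held more peaks turned over with distance. Between 1 and 1.5 kb, 70.1% (66.2 to 73.8) of stromal shoulders were downstream, and between 4 and 5 kb 37.7% (29.1 to 46.9) were. The stromal values between were 58.1%, 42.8% and 36.2%, at 1.5 to 2, 2 to 3 and 3 to 4 kb. The astromal shares were 60.7% (53.2 to 67.8) nearest and 36.4% (17.2 to 59.3) farthest, the latter from 22 peaks. Upstream shoulders were spread farther out in the stromal list: 36.7% (32.4 to 41.2) of them lay within 1.5 kb, against 52.9% (44.2 to 61.6) of the astromal ones. Downstream shoulders showed no such gap, with 62.1% (58.3 to 65.8) and 64.2% (56.5 to 71.3) within 1.5 kb.

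**Figure D1:**
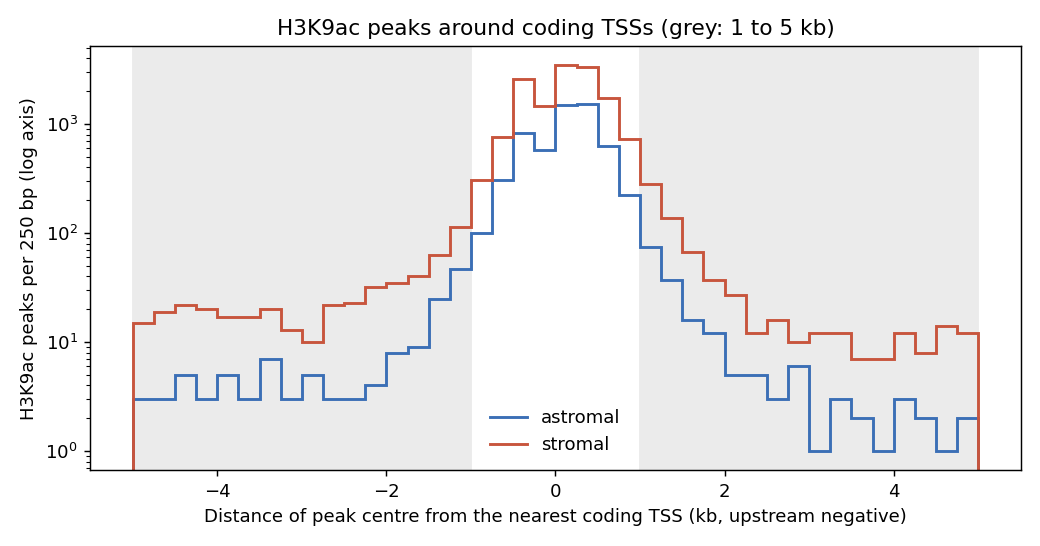
Number of H3K9ac peaks (log axis) in bins of 250 bp by distance from the nearest coding TSS in kb, for the astromal (blue) and stromal (red) lists, with the distances of the shoulders in grey. Counts drop steeply to about 2 kb on both sides and are mostly higher upstream than downstream beyond 2 kb in the stromal list.

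Downstream shoulders lay mostly in the first intron, 67.1% of the astromal and 65.6% of the stromal ones. Upstream shoulders were mostly intergenic, 79.4% and 82.2%. CpG islands, the GC-rich stretches found at many promoters, were the labelled feature of 36.2% of astromal and 30.4% of stromal shoulders. Interspersed and other repeats were the label of 11.0% and 9.39%, most of them SINEs (19 and 57 peaks). Repeat labels were more frequent upstream, at 16.9% against 6.36% downstream in the astromal and 12.9% against 6.89% in the stromal list.

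The level of single shoulder peaks was modest and much the same in both lists. Astromal shoulders ranged from 15.3 to 58.6 normalised tags with a median of 22.9 (9 tags), upstream and downstream alike. Stromal shoulders ranged from 11.9 to 83.2 with a median of 22.5 (17 tags), 23.8 upstream and 22.5 downstream. The stromal core median was 27.7, and the distal medians were 20.4 astromal and 19.8 stromal. In the astromal list the core median equalled the shoulder median. The lowest astromal shoulder rested on 6 tags, and the astromal list has few peaks at the levels of the weaker stromal ones: 828 of the 1150 stromal shoulders reached the 5th percentile of astromal peaks, 17.8. The deposited fraction of tags in focus, a measure of how concentrated a peak is, had a median of 0.70 in astromal and 0.684 in stromal shoulders, against 0.714 and 0.692 in core peaks.

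**Figure D2:**
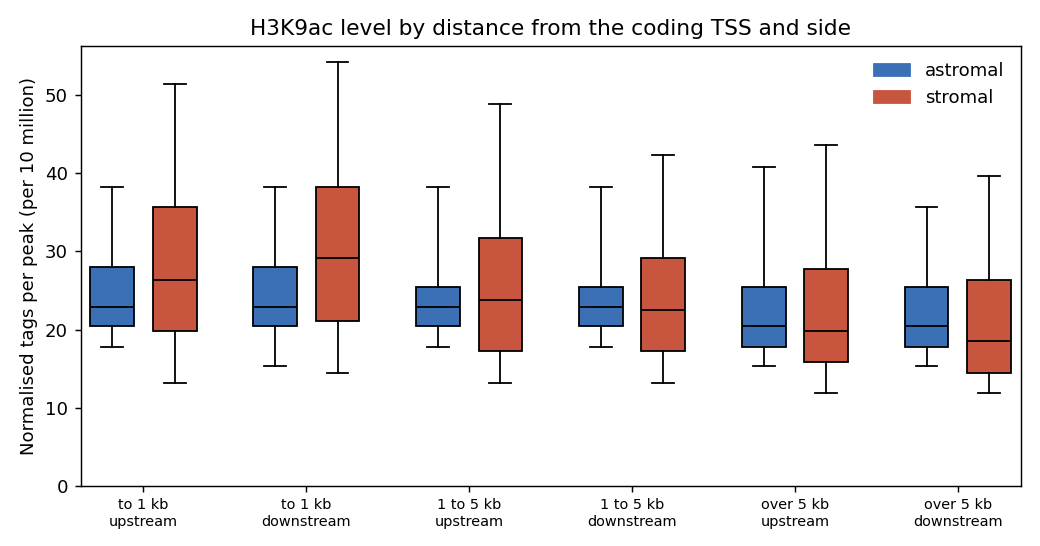
Normalised tags per H3K9ac peak (scaled to 10000000 tags) by distance from the coding TSS and side, as boxes of the quartiles with the median as a line and whiskers from the 5th to the 95th percentile of peaks. Astromal shoulders have the same median, 22.9, on both sides, and stromal shoulder boxes sit below the stromal core boxes.

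In the astromal list the highest upstream shoulders were at ZFP36, PTMA and C6orf62. C6orf62 also had the highest stromal shoulder, 83.2 normalised tags at chr6:24720724-24720934, and 51.0 at the overlapping astromal peak. ZFP36 encodes an RNA-binding protein that promotes decay of cytokine mRNAs, and it had the highest astromal one, 58.6 tags at 3776 bp upstream (chr19:39893611-39893811), with 50.2 in the stromal list. PTMA, which encodes the chromatin-associated protein prothymosin alpha, had 56.1 astromal and 39.6 stromal tags about 1.7 kb upstream. None of ZFP36, PTMA and C6orf62 had a core peak in either list. At each of the 3 sites a H3K27ac peak of the same condition overlapped in both conditions. Next in the astromal list were USF2 (45.9), GSK3B and CDK13 (43.3 each), all within 1.5 kb.
After C6orf62, the highest upstream shoulders of the stromal list were at COX20 (71.3), RAP2B (66.1), ANG (63.4), SGMS1 (62.1) and GSK3B (60.8). COX20 encodes an assembly factor of cytochrome c oxidase, ANG the ribonuclease angiogenin and GSK3B a kinase of glycogen and WNT signalling.

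Downstream, the highest stromal shoulders were in KCTD2 (79.3), KLHL15 (68.7), TERF2IP (67.4), ZBTB2 and ZNF19 (66.1 each) and LANCL2 (63.4). All but ZNF19 had a stromal core peak. TERF2IP encodes the telomere protein RAP1, and its core peak was higher still, at 79.3. The highest astromal ones were at ZNF19 (43.3), ANP32A, GSG1 and CRIP2 (40.8 each), and GTF2A1 and BCOR (38.2 each). The CRIP2 peak was labelled intergenic. ZNF19 led this list at 4860 bp, in its second intron (chr16:71518294-71518494). Of these 6 only GTF2A1, a subunit of the general factor TFIIA, had an astromal core peak.

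Most astromal shoulders also stood in the stromal list, and most stromal shoulders stood alone. Of the 309 astromal shoulders, 180 overlapped a stromal H3K9ac peak, 58.3% (52.5 to 63.8), while 75.8% of all astromal peaks did (core 77.2%, distal 73.8%). Of the 1150 stromal shoulders, 181 overlapped an astromal peak, 15.7% (13.7 to 18.0), while 26.6% of all stromal peaks did (core 30.3%, distal 13.2%). Shoulders were therefore less often shared than core peaks in both lists. Most of the 129 unshared astromal shoulders had a stromal peak close by: it lay within 1 kb for 109, 84.5% (77.1 to 90.3). For the 969 unshared stromal shoulders an astromal peak lay that close for 260, 26.8% (24.1 to 29.7). Unshared stromal shoulders had a median of 21.1 normalised tags and shared ones 34.3.

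By gene, 214 genes had a shoulder in both lists, 79 in the astromal list alone and 795 in the stromal list alone. The lists differ in size, with 5255 astromal and 10695 stromal coding genes with any peak. Of all peaks, 24.2% of the astromal and 73.4% of the stromal ones were in 1 list only. The same split by gene over all coding genes was not counted. At 165 of the 214 an astromal shoulder overlapped a stromal peak. Of the 795, 244 had a core peak in both lists, 304 a core peak in the stromal list alone, 12 in the astromal list alone and 235 none. The highest unshared stromal shoulders were at TERF2IP, RAP2B, LANCL2, DYRK1A (60.8), BDH1 (55.5), HIST1H2BK (54.2), IRX5 and U2AF2 (52.8 each). DYRK1A encodes a kinase, BDH1 an enzyme of ketone body metabolism and U2AF2 a splicing factor. The highest unshared astromal shoulders were at IRF2BP2 (40.8), METTL21A, BCOR and IGF2BP3 (38.2 each), SKIDA1 (35.7), TUBB4B, EIF4EBP1 and FOSL2 (33.1 each). IGF2BP3 encodes an RNA-binding protein of fetal and tumour tissue, and EIF4EBP1 a brake on translation initiation. FOSL2, an AP-1 subunit, had an unshared shoulder in each list, 33.1 tags at 2703 bp upstream and 48.9 tags at 2118 bp.

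At sites in both lists the stromal level was mostly the higher one, as it was at shared sites in general. Levels were scaled to all tags, of which H3K9ac peaks held 1.76% in the astromal and 5.81% in the stromal library. The part of this library difference in the ratios was not tested. Of 198 shared sites with a shoulder in at least 1 list, 170 had more normalised tags in the stromal library, 85.9%, against 90.5% of all 5411 shared sites. The median log2 ratio, stromal over astromal, was 0.53, a 1.44-fold level, against 0.64 over all shared sites. Ratios were centred on that overall median, and a call needed a centred difference of at least 2-fold with an interval clear of 0. No shoulder was called higher, where 0.351% of all shared sites were. Called lower were 3 (1.52%), where 0.61% of all were. So few calls do not set the shoulders apart from all shared sites, and a median of 9 astromal tags limits what could be called. Without centring, 21 shoulders (10.6%) were called higher, against 13.2% of all shared sites, and none lower.

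The 3 sites called lower were at FOSB, GSG1 and PTMA. FOSB had 38.2 astromal and 25.1 stromal normalised tags in its first intron, a centred log2 ratio of -1.24 (-2.30 to -0.16). GSG1, also in the first intron, had 40.8 and 27.7, a ratio of -1.20 (-2.20 to -0.16). PTMA had 56.1 and 39.6, a ratio of -1.14 (-1.98 to -0.27). These calls are relative to the other shared sites and rest on 15 to 30 tags a site: before centring all 3 intervals included 0. The highest centred ratio was at COL26A1, 1.04 (-0.22 to 2.58), from 6 astromal and 37 stromal tags, and it was not called.

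**Figure D3:**
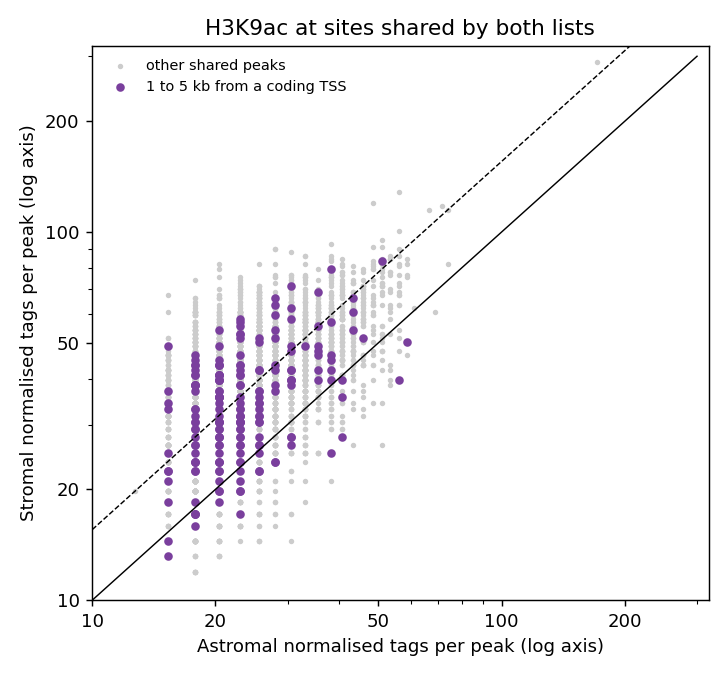
Normalised tags of the stromal peak against the astromal peak at sites in both H3K9ac lists (log axes), shoulders in purple and other shared peaks in grey, with equality as a solid line and the overall median ratio as a dashed line. Most shoulders lie above equality, 170 of 198, and FOSB, GSG1 and PTMA lie below it at the right.

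Shoulders carried H3K27ac of the same condition less often than core peaks did. In the astromal list 132 of 309 shoulders overlapped a H3K27ac peak, 42.7% (37.1 to 48.4), against 61.3% of core, 60.7% of distal and 59.7% of all peaks. In the stromal list 380 of 1150 did, 33.0% (30.3 to 35.8), against 41.2% of core, 36.6% of distal and 39.9% of all peaks. In both lists the shoulder share was below that of all peaks, and the stromal interval overlapped that of distal peaks (34.8 to 38.5).

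The mark was found more often on the upstream side. In the astromal list 52.2% (43.5 to 60.8) of upstream and 35.3% (28.2 to 42.9) of downstream shoulders overlapped H3K27ac. The stromal shares were 38.4% (34.0 to 42.9) and 29.2% (25.8 to 32.8), and in neither list did the intervals of the sides overlap. Core peaks had the same order, 70.7% against 56.9% astromal and 52.1% against 35.1% stromal, so the side difference was not particular to the shoulders. Distal peaks were nearly level in the stromal list, 36.8% and 36.4%.

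H3K27ac overlap went with H3K9ac level. Among stromal shoulders of 8 to 14 tags 18.0% (14.3 to 22.2) overlapped it, and among those of 28 tags or more 56.9% (49.0 to 64.5). In these tag classes stromal core peaks had 17.8% and 59.9%, close to the shoulders. Astromal shoulders had lower shares than core peaks in the lowest and highest tag classes: 36.1% (28.3 to 44.5) against 54.5% (52.5 to 56.5) up to 8 tags, and 57.7% (43.2 to 71.3) against 74.5% (71.9 to 76.9) from 12 tags. Stromal shoulders in CpG islands overlapped H3K27ac in 23.4% (19.1 to 28.2) and those outside in 37.2% (33.9 to 40.7). The astromal shares were 43.8% and 42.1%, and the difference between the conditions was not tested.

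Shared shoulders had the mark in similar shares, 56.1% of the 180 astromal and 57.5% of the 181 stromal. Whether H3K27ac at the 969 unshared stromal shoulders was also limited to the stromal list was counted next. It was present in both conditions at 185 (19.1%), in the stromal list alone at 91 (9.39%), in the astromal list alone at 111 (11.5%) and in neither at 582 (60.1%). For unshared stromal core peaks the share with neither was 53.5% (52.5 to 54.5), against 56.9 to 63.2 for the interval of the shoulders. For unshared stromal distal peaks it was 55.7% (53.6 to 57.7), an interval that overlaps that of the shoulders.

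**Figure D4:**
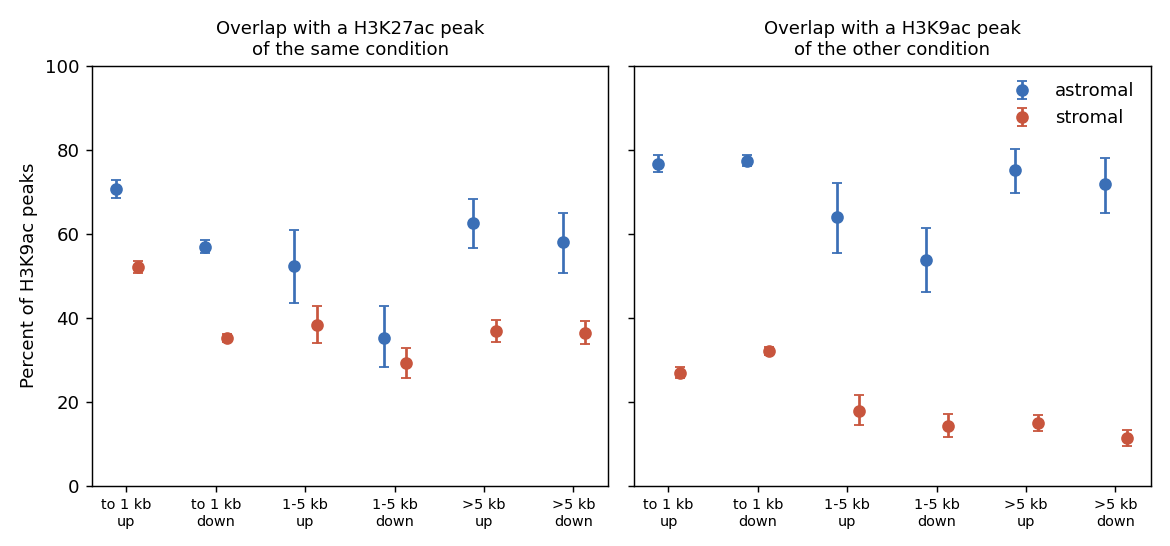
Percent of H3K9ac peaks that overlap a H3K27ac peak of the same condition (left) or a H3K9ac peak of the other condition (right), by distance and side, with exact 95% intervals as bars. Astromal upstream shoulders (52.2%) lie above downstream ones (35.3%) for H3K27ac, and shoulders lie below core peaks in both panels and both lists.

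Many shoulders stood at genes with no core H3K9ac peak. That was so for 202 of 309 astromal shoulders, 65.4% (59.8 to 70.7), and for 390 of 1150 stromal shoulders, 33.9% (31.2 to 36.7). It also held for 306 of 473 astromal and 1016 of 2644 stromal distal peaks, so it was not particular to shoulders. Looking at both lists together, 78 astromal and 371 stromal shoulders had no core peak of their gene in either. Downstream shoulders had a core peak more often, 37.6% against 30.9% of upstream ones in the astromal and 73.4% against 56.0% in the stromal list. Astromal shoulders without a core peak overlapped a stromal peak in 62.9% (55.8 to 69.5), and those with one in 49.5% (39.7 to 59.4), intervals that overlap. Stromal shoulders overlapped an astromal peak in 15.4% without a core peak and in 15.9% with one.
H3K27ac at the TSS went with the core peak. Where the TSS could be placed from 2 or more peaks, a H3K27ac peak centre lay within 1 kb of it for 13 of 223 stromal shoulders without a core peak, 5.83% (3.14 to 9.76), and for 422 of 710 with one, 59.4% (55.7 to 63.1). The astromal values were 77 of 192, 40.1% (33.1 to 47.4), and 81 of 103, 78.6% (69.5 to 86.1). The TSSs were placed from peaks of both H3K9ac lists together, and they favour genes with more peaks. No core peak here means none in the same list. Of the 202 such astromal shoulders 78 had none in either list, and of the 390 stromal ones 371. The astromal and stromal values without a core peak thus describe unlike sets.

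The genes with most shoulders had 3. KDM6B, which encodes a demethylase of the repressive mark on lysine 27, was the only gene with 3 in both lists, and it had no core peak in either. Its astromal peaks lay at 3729 bp upstream (25.5 tags) and at 3430 and 4467 bp downstream (20.4 each). Its stromal peaks lay at 3913 and 3277 bp upstream (34.3 and 29.1) and 2150 bp downstream (38.3). Only the farther upstream site overlapped between the lists. In the stromal list MAMSTR, BCOR, SHF, SOX4, VGLL4, SGK223 and ZIC5 also had 3. BCOR encodes a corepressor and VGLL4 a partner of TEAD factors, and both were measured from more than 1 TSS. Counted per gene, 1 astromal and 23 stromal genes had both an upstream and a downstream shoulder, not always of the same TSS: the RUNX1 pair, for example, was measured from different starts.

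Immediate early and growth factor response genes were taken as 1 list, and growth signals switch on some of them within minutes. Shoulders stood at 7 of the 20 members with any astromal peak, 35.0%, and at 13 of 30 in the stromal list, 43.3%. Over all coding genes with a peak the shares were 5.58% and 9.43%. HOX genes had shares as high, 37.5% and 46.2%, so this was not particular to the list. The gene lists were chosen with earlier results of these data known. The median level over these shoulders was 29.3 astromal and 30.4 stromal, against 22.9 and 22.5 over all shoulders. FOSB had 2 astromal shoulders, 28.0 at 1016 bp and 38.2 at 1568 bp, and no astromal core peak. In the stromal list it had 1 shoulder, 25.1 at 1553 bp, and core peaks of 21.1 at 535 bp upstream and 672 bp downstream. JUND had 28.0 astromal tags at 1617 bp and 42.3 stromal tags at 1577 bp, at an overlapping site in the 3' UTR of its single exon. KLF6 had 30.6 astromal tags at 1312 bp and 44.9 stromal tags at 1649 bp in the first intron, which did not overlap. FOS, weak in both lists, had 17.8 at 1366 bp upstream in the astromal and 14.5 at 1051 bp upstream in the stromal list. IER2 and PHLDA1 had a shoulder in the astromal list alone (30.6 and 28.0). EGR1 (35.7), CCND1 (33.0), SPRED2 (31.7 and 30.4), ATF3, IER5, DUSP6, EGR3 and IER5L (51.5 and 50.2) had them in the stromal list alone.

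**Figure D5:**
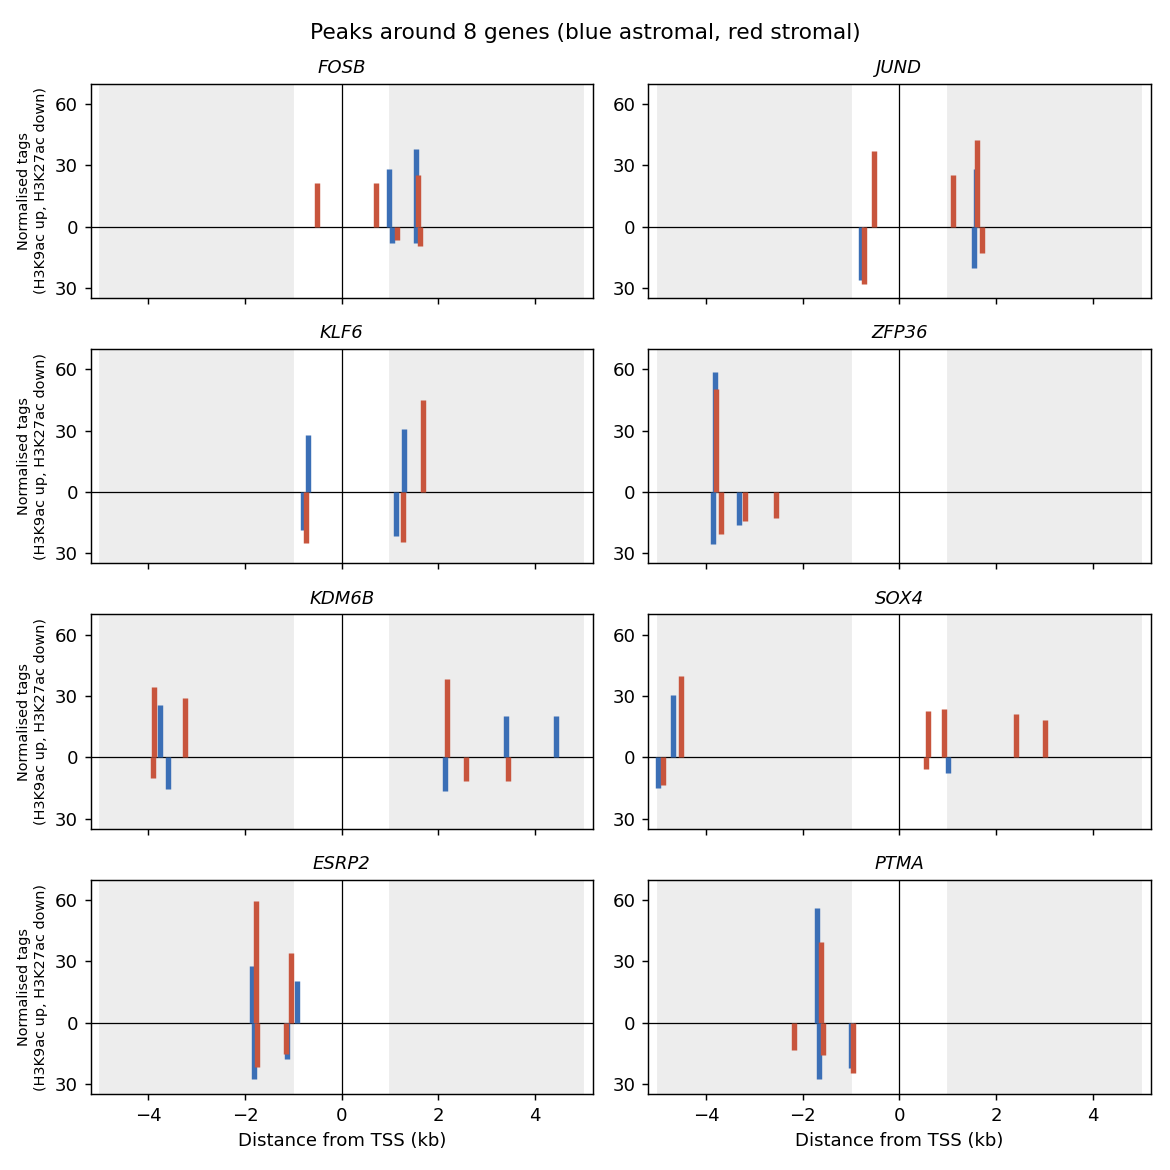
Peaks around the TSS of 8 genes by distance in kb, with H3K9ac drawn upward and H3K27ac downward in normalised tags per peak, astromal in blue and stromal in red. Shoulders (grey) at ZFP36, PTMA and ESRP2 carry both marks in both conditions, and H3K9ac at KDM6B has no core peak.

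Transcription factors of cell identity had shoulders at 2 of 15 astromal (13.3%) and 9 of 24 stromal members (37.5%). SOX4, a factor of progenitor and tumour cells, had an overlapping site about 4.6 kb upstream with 30.6 astromal and 39.6 stromal tags. The others in the stromal list were FOSL2, SNAI1 (27.7), RUNX1 (23.8 and 18.5), FOXQ1, GATA2, ID2, NFIB and ONECUT2 (11.9 to 19.8). The list's median was 31.9 astromal tags, above the 22.9 of all astromal shoulders, and 19.2 stromal tags, below the 22.5 of all stromal ones. The astromal median rests on 2 peaks, FOSL2 (33.1) and SOX4, too few to compare the conditions.
HOX genes, which pattern the body axis, had them at 3 of 8 (37.5%) and 6 of 13 members (46.2%). Genes of TGF beta and YAP signalling had them at 1 of 12 (8.33%) and 6 of 22 members (27.3%). The shares over all coding genes with a peak were 5.58% astromal and 9.43% stromal. SKI, a repressor of SMAD factors, had an overlapping site with 22.9 astromal and 43.6 stromal tags. CRIM1 (31.7), SMAD7 (29.1), TGFB1 (17.2) and SMAD3 (13.2) had stromal shoulders alone. Over all genes, 795 had stromal and 79 astromal shoulders alone.

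Metabolic lists lay on both sides of the shares over all coding genes with a peak, 5.58% astromal and 9.43% stromal. Glycolysis had 1 of 12 astromal (8.33%) and 3 of 20 stromal members (15.0%): HK2, the first enzyme of the pathway, had an overlapping site in its first intron with 17.8 and 26.4 tags and a second stromal peak of 21.1, and PFKFB3 and GPI had stromal ones of 19.8 and 18.5. Acetyl-CoA and fatty acid genes had none of 9 and 1 of 18 (5.56%), ACACA (21.1), the enzyme that commits acetyl-CoA to fatty acids. Cholesterol synthesis had none of 10 and 1 of 21 (4.76%), TM7SF2 (37.0). Amino acid and one-carbon genes had 1 of 18 (5.56%) and 4 of 22 (18.2%): SLC7A5 in both lists (17.8 and 18.5, at different sites), and DDIT4 (47.6), MTHFD1 (25.1) and PHGDH (15.9) in the stromal list. Cell cycle genes had none of 8 and 2 of 26, RRM2 (26.4) and CDKN1A (23.8). Ribosomal protein genes had none of 50 and 3 of 75, and zinc finger genes of the ZNF series 6 of 223 and 14 of 386, 2.69% and 3.63%. Clustered histone genes had 2 of 28 and 4 of 37.

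Epithelial markers had shoulders at 1 of 4 and 4 of 8 members, against 5.58% and 9.43% of all coding genes with a peak. ESRP2, a splicing regulator of epithelial cells, had 28.0 astromal and 59.4 stromal tags at an overlapping site about 1.8 kb upstream. Its second stromal shoulder, 34.3 tags at 1073 bp upstream, overlapped an astromal core peak of 20.4 tags at 897 bp upstream. CLDN4 (21.1) and KRT19 (15.9) had stromal shoulders alone. Among fibroblast markers COL1A2, a chain of type I collagen, had a stromal shoulder of 29.1 beside a core peak of 30.4, and PDGFRA had 11.9 on each side. The only mesenchymal marker with a shoulder was SNAI1.

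The promoters of shoulder genes, 250 bases before to 50 after the RefSeq start on GRCh38.p14, were found for 248 of 293 astromal and 816 of 1009 stromal genes. TATAAA, on either strand, stood in 8.87% (5.64 to 13.1) and 7.23% (5.55 to 9.23) of them. In genes with a core peak and no shoulder the shares were 4.86% (4.22 to 5.57) and 4.50% (4.04 to 4.99), and in all 27305 promoters 11.95%. GC content had a median of 68.0% and 67.0%, against 65.0% and 65.7% without a shoulder. CCAAT stood in 36.3% and 35.3%, against 37.3% and 37.2%, and 35.7% of all promoters. GGGCGG stood in 75.4% and 69.1%, against 70.9% and 73.6%, and 44.6% of all. The AP-1 motif (TGACTCA or TGAGTCA) stood in 2.42% and 4.04%, against 2.80% and 2.55%, and 4.92% of all. The genes compared all had a core peak, which 190 of 293 astromal and 317 of 1009 stromal shoulder genes lacked. Stromal shoulder genes with a core peak had GGGCGG in 72.8% and TATAAA in 5.96% (4.17 to 8.24). Those without one had 60.6% and 10.2% (6.69 to 14.6). The astromal values were 75.3% and 9.68% with a core peak, and 75.5% and 8.39% without one. Each motif was searched on both strands, and a match describes these letters only.

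Levels of the peaks nearest the distance limits are given as a description. At 1 kb the innermost astromal shoulders were at ARHGEF11 (20.4) and ANKRD28 (25.5), and the outermost core peaks at ITPR3 and MSRA (17.8 each). In the stromal list these were PLAUR (27.7) and RTEL1 (25.1), and MAN2A2 (25.1) and PARP4 (17.2). Near 5 kb the outermost astromal shoulders were ZSCAN4 (20.4) and APC2 (17.8) and the peaks just beyond KRBA2 (30.6) and CDR2L (15.3). The outermost stromal shoulders were CD248 (25.1) and KRBA2 (27.7) and the peaks just beyond GPR4 (22.5) and APC2 (38.3). KRBA2 and APC2 thus fell on different sides of this limit in the 2 lists.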

How the data were processed

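H3K9ac and H3K27ac ChIP-seq peak lists were used, 1 library for each mark and condition; the 4 input libraries are not analysed here. Reads were processed with CASAVA 1.8.2, Bowtie and HOMER on hg19, per the submitters' processing notes. The H3K9ac lists carry HOMER annotation, per the file headers. Their peak-calling settings were not given in the sources used here. H3K27ac peaks were called at an FDR of 0.001 and at least 4-fold over input and over the surrounding 10 kb, per the file headers; the latter filter can remove peaks beside a strong promoter peak. Levels are the signal the authors deposited, tags per peak scaled to a library of 10000000 tags. The H3K9ac signal rises in steps worth 1 tag, which gave tag counts and depth (largest gap to a whole tag 0.0365). The deposited fraction of tags in focus, the deposited ratio (fold) over input and the distance to the TSS, per the file headers, were used as given.

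An overlap of 1 bp or more made a peak shared. Shares have exact intervals, computed with scipy 1.17.1 and pandas 2.3.3. Methods were tested on simulated data. TSS positions came from peaks of 1 transcript, pooled over both H3K9ac lists (7400 of 14955 transcripts, 2 conflicting). No hg19 sequence was used, so RefSeq promoters replaced the planned reading of peak sequences. Members and gene lists were chosen with earlier results of these data known. Named are the 6 highest peaks per list and side, the 10 genes with most shoulders, called sites, the 8 highest unshared peaks, members of the lists and 2 peaks at each limit; COL26A1 was named after its value was seen. Genes shown in the plot of 8 genes were picked from these. Some members of the gene lists are not reported here by name.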

Additional observations from a re-analysis of the deposited data

Results flagged for a closer look

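In 2 measures the stromal minus astromal difference had opposite signs on the upstream and downstream sides of the TSS; with 1 library per condition neither difference between the sides was tested. The median level of shoulders differed by 0.9 normalised tags upstream and by -0.4 downstream, both under the worth of 1 tag (2.55 astromal, 1.32 stromal). The share of shoulders labelled as a repeat differed by -4.05 percentage points upstream and by 0.528 downstream.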

How the results depend on the processing

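Of 59 alternatives over 14 results, 26 stayed within the interval of the value given (for counts, within 1.5 times it) and 33 did not; the causes were not tested. No paired analysis was possible because each mark and condition was 1 library and no result comes from a test. Counted from 2 kb, the downstream share was 42.0% astromal and 39.3% stromal, below 50%, the shoulder share of coding peaks 1.25% and 2.08%, and the astromal shared share 69.1%. Counted to 3 kb, the stromal downstream share was 63.3% and the shoulder shares 4.06% and 5.06%. With at least the median tags of the list, the stromal downstream share was 53.2% and its shoulder share 4.74%, the stromal shared share 31.5%, the H3K27ac shares 48.5% in both lists, and the shares without a core peak 56.4% and 30.6%. Under an overlap of 50% of the shorter peak, the shared shares were 43.7% and 11.7% and the H3K27ac shares 29.4% and 25.3%. With peak edges within 1 kb these were 93.5% and 38.3%, and 74.8% and 56.4%. With H3K27ac at least 8-fold over input the stromal share was 30.0%, and with stromal peaks from the 5th percentile of astromal levels the stromal shared share was 21.1%. The following settings were chosen after seeing the data, as was the median tag limit for shares without a core peak. With a core peak of the same transcript only, the shares without one were 71.2% and 42.5%, and with a core window of 1.5 kb 71.4% and 45.9%. Among planned ones, requiring 10 tags in each library gave a median log2 ratio of 0.39 from 70 sites, no centring gave 21 shoulders higher and 0 lower, and the ratio of median levels was 1.89 in tags against 0.983 in normalised tags. Astromal depth, 9 tags at the median shoulder, limits every comparison of levels and of shared peaks. So does the unlike share of H3K9ac tags in peaks, 1.76% astromal and 5.81% stromal.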

Other observations

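Shoulders lay closer to other H3K9ac peaks than distal peaks did. Their definition favours this order, since both sets were split by distance to a coding TSS and most coding peaks were core peaks. The nearest other peak of the list was within 5 kb for 43.7% (38.1 to 49.4) of astromal shoulders and 79.0% (76.5 to 81.3) of stromal ones, against 23.9% and 40.6% of distal peaks. For core peaks the shares were 37.7% and 74.9%.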
